A study of Mus musculus with 11 samples.

Results

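Immunoglobulin variable (V) segments were measured in whole bone from the distal tibia, in Controls and in BMAd-DTA mice. Every row of the merged count table whose symbol starts with Ighv, Igkv or Iglv was taken, which gave 230 of the table's 22600 genes: 117 heavy chain segments on chromosome 12, 110 kappa segments on chromosome 6 and 3 lambda segments on chromosome 16. Of these, 204 are annotated as V genes and 26 as V pseudogenes. The study asked what happens to bone and marrow when BM adipocytes are lost. There were 4 Control and 7 BMAd-DTA mice, each with 1 library of strand-specific paired-end reads, all of a C57BL6/SJL background, 24 weeks old and fed ad libitum. All mice, Controls included, carried Osterix-FLPo and FAC, the FLPo-dependent Cre in the Adipoq gene. The BMAd-DTA mice also carried ROSA-DTA, from which Cre recombination releases diphtheria toxin A and kills the cell. By the study's account recombination is incomplete, and the Cre also reaches a small subset of the adipogenic precursors of the marrow.

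A B cell builds its receptor by joining 1 V segment to the downstream segments of the same locus, once for the heavy chain and once for a kappa or lambda light chain, so the V segment in its RNA marks the rearrangement it made. Plasma cells, many of which live in the BM, carry far more immunoglobulin RNA than B cells do, and the descendants of 1 cell share its V segments. V segment counts from bulk RNA therefore sum over all B lineage cells of the bone, weighted by their RNA, and fewer cells cannot be told apart from less RNA per cell.

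Some of the most used segments show what the counts were assigned to. The last 75 bases of each, all in exon 2 of 2 in the GENCODE M21 transcripts (GRCm38), are given 5′ to 3′. The capitals mark the last match to TANTNNTGN on the coding strand, which ends in the codon of the conserved cysteine that precedes the third hypervariable loop. This pattern was present in the last 75 bases of 96.3% of 216 annotated V genes and of 60.0% of 130 V pseudogenes. The heavy chain segments shown lie on the minus strand of chromosome 12. Ighv3-6, Ighv9-3 and Ighv1-26 are among the 5 with the highest mean level, and Ighv1-55 had the most counts in Control replicate 1 only.
Ighv3-6: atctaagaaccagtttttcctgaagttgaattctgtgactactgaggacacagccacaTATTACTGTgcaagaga
Ighv9-3: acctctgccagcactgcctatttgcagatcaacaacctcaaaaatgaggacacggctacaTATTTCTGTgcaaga
Ighv1-26: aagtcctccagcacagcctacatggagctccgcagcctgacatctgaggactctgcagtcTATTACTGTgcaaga
Ighv1-55: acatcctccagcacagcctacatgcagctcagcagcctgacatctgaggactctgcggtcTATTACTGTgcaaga
These stretches are at chr12:114288152-114288226, chr12:114140692-114140766, chr12:114788372-114788446 and chr12:115208095-115208169. The leading kappa segments come from several families, and the kappa locus holds segments on both strands.
Igkv1-110: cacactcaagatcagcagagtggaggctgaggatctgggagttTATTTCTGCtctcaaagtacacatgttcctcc
Igkv10-96: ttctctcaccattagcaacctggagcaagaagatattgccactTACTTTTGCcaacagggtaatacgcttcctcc
Igkv1-117: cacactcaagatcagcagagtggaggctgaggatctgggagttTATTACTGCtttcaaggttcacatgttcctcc
Igkv6-15: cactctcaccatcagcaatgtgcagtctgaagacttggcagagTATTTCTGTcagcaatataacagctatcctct
They are at chr6:68271193-68271267 (plus strand), chr6:68631963-68632037 (minus), chr6:68121753-68121827 (plus) and chr6:70406469-70406543 (minus). Igkv1-110 and Igkv1-117 are each other's closest relative, with 97.5% identity over the shorter transcript. Over all members, the median identity to the closest V transcript of the same chain was 95.0%, and 19 segments had a relative at 98% or more. Pairs that STAR aligned to several places are not in these counts, so segments such as Ighv1-62-2 and Ighv1-71, at 99.7% identity, are measured with less certainty.

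The same limit holds for the lambda locus. Iglv1 and Iglv2 differ at 8 of their last 300 bases (97.3% identity), which are in capitals here, and the longest run without a difference is 104 bases, so a read of 100 bases can lie wholly within it.
Iglv1: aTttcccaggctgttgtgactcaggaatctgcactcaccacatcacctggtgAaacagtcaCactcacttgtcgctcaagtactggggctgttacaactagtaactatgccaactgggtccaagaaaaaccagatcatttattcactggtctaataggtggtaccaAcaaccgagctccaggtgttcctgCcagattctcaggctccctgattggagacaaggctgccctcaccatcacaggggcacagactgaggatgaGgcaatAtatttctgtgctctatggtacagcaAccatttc
Iglv2: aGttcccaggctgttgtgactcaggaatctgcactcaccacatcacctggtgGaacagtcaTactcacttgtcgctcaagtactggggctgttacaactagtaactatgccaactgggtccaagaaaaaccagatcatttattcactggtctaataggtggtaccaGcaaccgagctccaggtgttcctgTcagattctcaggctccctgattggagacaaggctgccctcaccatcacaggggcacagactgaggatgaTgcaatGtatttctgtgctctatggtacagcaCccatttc
They are at chr16:19085017-19085316 and chr16:19260401-19260700, both on the minus strand. Iglv3, the other lambda segment, is 57.7% identical to Iglv1.

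Library totals lay between 16969529 and 18637663 counts assigned to genes. Levels are in CPM, counts scaled to library size after TMM normalization. Genes of bone and of marrow were both present. Summed over 5 genes, bone genes (Col1a1, Bglap2, Sost, Dmp1, Ibsp) reached 1702 to 7323 CPM in Controls and 9122 to 19968 CPM in BMAd-DTA mice, and 7 neutrophil genes summed to 17844 to 26132 CPM over all libraries. Retn, an adipocyte gene, was the 1 gene of the 5 on the adipocyte list past the edgeR threshold, against 0.0788% of all tested genes. All 5 genes of that list had a log2 fold change below 0. Of 8 T cell genes, 8 had a log2 fold change above 0, against 50.4% of all tested genes. Of these 8, 6 had an unadjusted edgeR p under 0.05, against 16.4% of all tested genes. The 4 erythroid and 5 skeletal muscle genes tested were all below 0. No T cell, erythroid or skeletal muscle gene had an adjusted p under 0.05 by edgeR. By DESeq2 1 erythroid gene did, against 5.42% of all genes. All 5 bone genes had a log2 fold change above 0 and an unadjusted edgeR p under 0.05. By edgeR none of them had an adjusted p under 0.05, and by DESeq2 4 did. The bone gene sums did not overlap between the groups, and their part in the V segment results was not tested. Control replicate 1 stood apart in the immunoglobulin genes and had the lowest bone gene sum, and the V, constant gene and B lineage sums are given with and without it.

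V segment RNA made up a small and variable part of each library, and the groups overlapped for each chain. Together the 230 segments took 0.580% ± 0.304 (SD, n = 4) of the counts in Controls and 0.703% ± 0.165 (SD, n = 7) in BMAd-DTA mice. Heavy chain V counts summed to 764, 3516, 2506 and 1791 CPM in Control replicates 1 to 4. In BMAd-DTA mice the lowest, median and highest heavy chain sums were 1726, 2497 and 3390 CPM. Each of the 7 BMAd-DTA sums lay within the range of the Controls, whose range was set by replicate 1 at the bottom and replicate 2 at the top. The ratio of the group means was 1.19 with all mice and 0.980 without Control replicate 1.

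Kappa is the main light chain of the mouse, and its V sums ranked the 4 Controls in the same order as the heavy chain sums did. The kappa sums were 1376, 5806, 4054 and 2812 CPM in Control replicates 1 to 4, and 2831, 4093 and 5942 CPM as the lowest, median and highest BMAd-DTA mouse. BMAd-DTA replicate 6 was above all Controls and no BMAd-DTA mouse was below them. The ratio of the means was 1.24, and 1.03 without Control replicate 1. The lambda sums were 43.2, 207, 216 and 124 CPM in Controls, and 75.9, 154 and 249 CPM as the lowest, median and highest BMAd-DTA mouse, with a ratio of the means of 1.06 that became 0.861 without Control replicate 1. No test was run on these sums, because they are scores over the members. For all 3 chains the difference of the means was smaller than the SD of the Control mice.

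**Figure D1:**
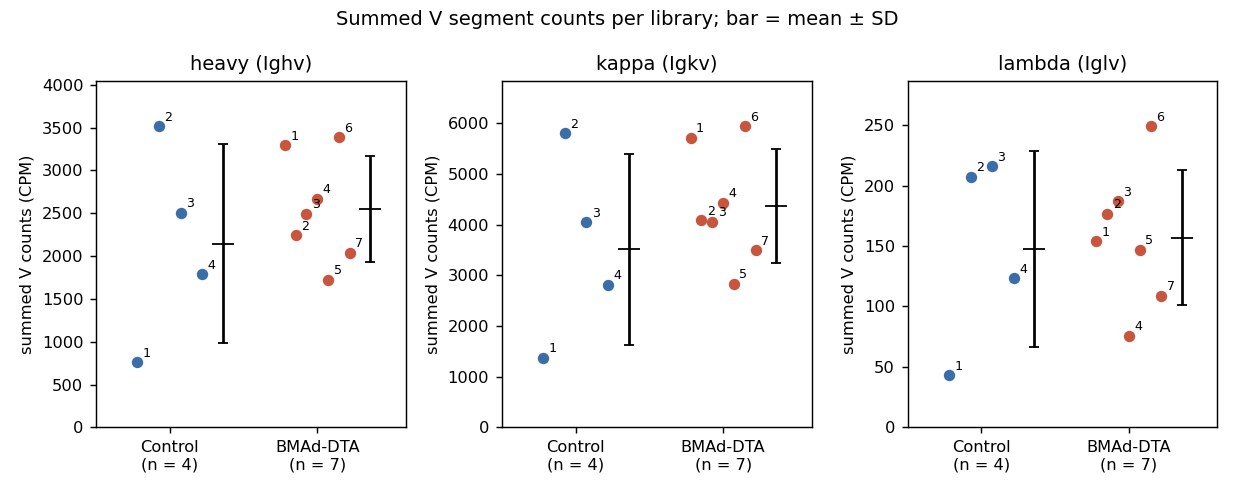
Summed V counts in CPM of each library for the heavy, kappa and lambda chains, with 1 point per mouse labelled by its replicate number and a bar for the mean ± SD of 4 Control or 7 BMAd-DTA mice. Control replicate 1 is the lowest library in all 3 panels (764, 1376 and 43.2 CPM), and the other Controls spread over the range of the BMAd-DTA mice.

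Lambda chains took a small share of the light chain V counts. Iglv segments made up 3.04%, 3.45%, 5.06% and 4.21% of kappa and lambda V counts in Control replicates 1 to 4. In BMAd-DTA mice the lowest, median and highest shares were 1.68% (95% Wilson interval 1.599% to 1.774%), 4.02% and 4.93% (4.75% to 5.12%). 3 BMAd-DTA mice, replicates 1, 4 and 7, were below all Controls, while the other 4 lay among them. Replicate 7, at 3.02% (2.89% to 3.15%), was within the interval of Control replicate 1 (2.84% to 3.26%). The group means were 3.94% ± 0.888 and 3.55% ± 1.14 (SD, n = 4 and 7). Intervals on shares cover counting error only.

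The constant genes, which mark the antibody class, were read beside the V sums. Igha, the constant gene of IgA, was at 2676, 22257, 15154 and 7783 CPM in Control replicates 1 to 4 and at 8764 to 21319 CPM in BMAd-DTA mice. Jchain, which joins IgA and IgM into polymers, was at 634, 4382, 2895 and 1575 CPM in Controls. Both were lowest in Control replicate 1, as the V sums were. Ighm, the constant gene of IgM, went the other way in that library, with 3185 CPM against 1104 to 1801 CPM in the other Controls and 707 to 2113 CPM in BMAd-DTA mice. Of 14 genes on the constant list, 13 were tested, 11 had a log2 fold change above 0 and 2 below, with a median of 0.42. Of all tested genes, 50.4% were above 0. None of the 13 had an adjusted p under 0.05 by edgeR or DESeq2. None had an unadjusted p under 0.05 by edgeR, against 16.4% of all tested genes. The largest was Ighg1 (IgG1), at 1.32 ± 0.76 (log2 fold change ± SE, edgeR adjusted p = 0.41), where BMAd-DTA replicate 6 had 2541 CPM and the other 10 libraries 104 to 757 CPM. The smallest was Ighm at -0.20 ± 0.30 (edgeR adjusted p = 0.80). Among the others, the log2 fold changes were 1.26 for Ighe, 1.23 for Ighg3, 0.59 for Ighd, 0.52 for Iglc3 and 0.44 for Igkc. They were 0.42 for Jchain, 0.34 for Igha, 0.33 for Iglc1, 0.11 for Ighg2c, 0.06 for Iglc2 and -0.07 for Ighg2b. Iglc4, with at most 0.414 CPM, was not tested. For Ighe, at 1.87 to 2.72 CPM in Controls, 4 BMAd-DTA mice were below all Controls and 3 above. The highest Ighe values were 11.01 and 23.3 CPM, in BMAd-DTA replicates 3 and 6. For Ighg3, 4 BMAd-DTA mice were above all Controls and 0 below. Replicate 4 had 97.3 CPM of Ighg3, and the other BMAd-DTA mice had 9.81 to 50.5 CPM. Without Control replicate 1 the ratio of the mean constant gene sums went from 1.27 to 1.07, that of Igha from 1.26 to 1.004 and that of Jchain from 1.34 to 1.08. Of the tested constant genes, 3 changed direction: the ratio of the means went from 0.868 to 1.1496 for Ighm, from 1.08 to 0.957 for Ighg2c and from 1.04 to 0.852 for Iglc2.

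Per 100 counts on the constant genes of their chain, V segment counts overlapped between the groups. The heavy chain ratio was 13.2 ± 1.76 in Controls and 13.3 ± 0.723 in BMAd-DTA mice (mean ± SD, n = 4 and 7). The kappa ratio was 40.4 ± 6.47 and 37.1 ± 2.62 V counts per 100 Igkc counts. All BMAd-DTA values lay inside the Control range of 34.0 to 49.4, whose low end was Control replicate 1. Without that library the lowest Control was at 38.4, against a BMAd-DTA median of 36.4 and maximum of 41.5. The ratio of the mean kappa values went from 0.920 to 0.874. The lambda ratio was 55.2 ± 6.76 and 49.3 ± 5.96, and 2 BMAd-DTA mice were below all Controls. The lowest Control, at 46.8, was again replicate 1. Without it the lowest was at 52.8, against a BMAd-DTA median of 50.8 and maximum of 58.0. The ratio of the means then went from 0.893 to 0.849 for lambda, and from 1.004 to 0.951 for the heavy chain. These ratios compare the same genes between libraries and say nothing of one gene against another, since segment and constant gene lengths differ.

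The V sums can be set beside other B lineage genes. All 10 plasma cell genes on the list were tested and all 10 had a log2 fold change above 0, against 50.4% of all tested genes. The median of the 10 was 0.34, from Tnfrsf17 (the BCMA receptor, 0.70 ± 0.43 SE) to Xbp1 (a secretory regulator, 0.12 ± 0.13). Their summed level was 1159 CPM in Control replicate 1 and 2270 to 5350 CPM in the other Controls, and 2260 to 5569 CPM in BMAd-DTA mice. The ratio of the mean plasma cell sums was 1.30 with all mice and 1.07 without Control replicate 1. Jchain, which is also on the constant gene list, held 2371 of the 3134 CPM of the mean sum in Controls. Without Control replicate 1 the ratios of single genes ran from 1.001 (Slamf7) and 1.03 (Xbp1) to 1.32 (Tnfrsf17). Of 11 pro-B and pre-B cell genes, 10 were above 0 with a median of 0.23, and of 11 mature B cell genes, 10 were above 0 with a median of 0.52. The extremes were Vpreb3 (0.65 ± 0.33) and Cd93 (-0.03 ± 0.10), and Fcer2a (CD23, 0.69 ± 0.40) and Cd74 (-0.03 ± 0.20). No gene of these 3 lists had an adjusted p under 0.05 by edgeR or DESeq2, and 0 plasma cell, 1 pro-B and pre-B cell and 2 mature B cell genes had an unadjusted edgeR p under 0.05, against 16.4% of all tested genes. Without Control replicate 1 the ratio of the mean sums went from 1.13 to 1.05 for the pro-B and pre-B cell list. For the mature B cell list it went from 1.18 to 1.12. Cd74 held 1206 of the 2230 CPM of the mean mature B cell sum in Controls, and its ratio without that library was 0.990. The other mature B cell genes stayed above 1 without it, from 1.11 (Pax5) to 1.36 (Cd79a). In the pro-B and pre-B cell list, Cd93 (0.996), Dntt (0.995) and Rag1 (0.964) were then below 1, and Vpreb3 was highest at 1.38.

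Use of the segments was broad in every library. Of the 117 heavy chain segments, 100 had at least 1 count in Control replicate 1 and 110 to 113 in each of the other 10 libraries, and of the 110 kappa segments 99 to 109 did. In all 11 libraries, 91 heavy chain, 88 kappa and 3 lambda segments had at least 1 count, and 75, 74 and 3 had at least 10. The effective number of segments, the exponential of the Shannon entropy of the shares, is the number of equally used segments that would give the same evenness. For the heavy chain it was 54.1, 56.8, 56.0 and 60.5 in Controls and 54.9, 57.7 and 60.1 as the lowest, median and highest BMAd-DTA mouse. For the kappa chain it was 51.2, 49.8, 50.2 and 54.8 in Controls and 49.7, 51.5 and 55.8 as the lowest, median and highest. The group means were within 1 of each other for both chains, and smaller apart than the SD between mice, which was 2.69 and 1.85 for the heavy chain and 2.28 and 1.99 for the kappa chain (Control and BMAd-DTA). The 13860 heavy chain V counts of Control replicate 1 were the fewest. Thinned to that number, the expected number of heavy chain segments seen was 100 in Control replicate 1, 104 to 106 in the other Controls and 104 to 108 in BMAd-DTA mice.

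**Figure D2:**
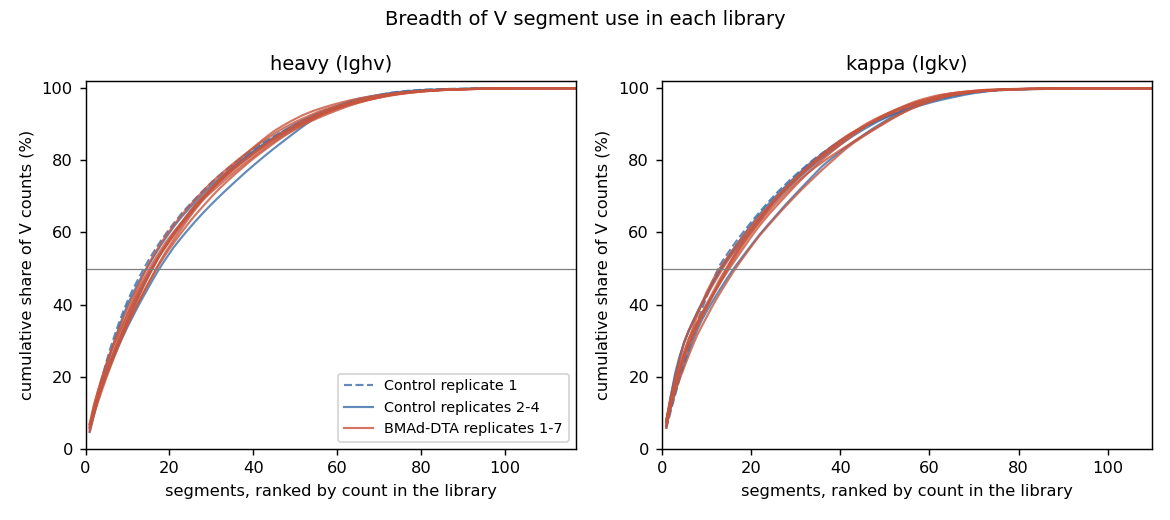
Cumulative share of the heavy (left) and kappa (right) V counts, in percent, against segments ranked by count within each library, with 1 line per mouse (blue Control, red BMAd-DTA, dashed Control replicate 1). The grey line at 50% is crossed after 14 to 18 heavy chain and 13 to 17 kappa segments, and the lines of the groups lie on each other.

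No single segment dominated a heavy or kappa repertoire. The most counted heavy chain segment took between 4.68% (95% Wilson interval 4.48% to 4.88%) and 6.95% (6.72% to 7.19%) of a library's heavy chain V counts, with means of 5.68% ± 0.756 in Controls and 6.03% ± 0.868 in BMAd-DTA mice (SD, n = 4 and 7). Ighv3-6 was that segment in Control replicates 2 and 3 and in 6 BMAd-DTA mice, Ighv9-3 in Control replicate 4 and BMAd-DTA replicate 7, and Ighv1-55 in Control replicate 1. The kappa range was 5.53% (5.26% to 5.83%) to 7.82% (7.65% to 7.98%), with means of 6.71% ± 1.02 and 6.96% ± 0.760. Here 5 segments led in at least 1 library: Igkv10-96, Igkv1-110, Igkv1-117, Igkv6-15 and, in Control replicate 1, Igkv12-89. The top 5 segments together took 19.8% to 24.3% of the heavy chain counts and 22.5% to 29.5% of the kappa counts. Counted per kilobase of transcript, the leading segment was the same in 10 of 11 libraries for the heavy chain, with Ighv9-3 in place of Ighv1-55 in Control replicate 1, and in 11 of 11 for the kappa chain.

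In the lambda locus 1 of the 3 segments usually held most counts. Iglv1 was at 31.5, 71.8, 160 and 105 CPM in Control replicates 1 to 4, and Iglv3 at 3.75, 127, 34.4 and 10.6 CPM. Iglv3 led in Control replicate 2, where it took 61.1% of lambda V counts, and in BMAd-DTA replicate 6, where it took 47.6%. Iglv1 led in the other 9 libraries with 65.6% to 85.2%. The fitted log2 fold changes were 0.19 ± 0.33 for Iglv1, -0.15 ± 0.36 for Iglv2 and -0.07 ± 0.82 for Iglv3 (SE, edgeR adjusted p = 0.83, 0.89 and 0.98). All 3 changed sign when 1 Control was left out: Iglv1 to -0.10 without replicate 1, Iglv2 to 0.36 without replicate 3 and Iglv3 to 1.37 without replicate 2. Iglv3 also turned to 0.077, 0.117 and 0.076 without BMAd-DTA replicate 1, 4 or 7.

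V segments are grouped into families by sequence, and family shares overlapped between the groups. The 61 segments of Ighv1 held 56.2% ± 2.84 of the heavy chain V counts in Controls and 57.8% ± 1.49 in BMAd-DTA mice (SD, n = 4 and 7). Ighv5 was next with 9.38% ± 1.18 and 9.51% ± 1.92, then Ighv3 with 6.47% ± 0.912 and 7.36% ± 0.959. Among kappa families, Igkv4, with 30 segments, held 20.1% ± 2.45 and 17.3% ± 1.66. Igkv1 held 14.8% ± 2.70 and 15.4% ± 1.10, and Igkv6 15.0% ± 1.26 and 15.1% ± 2.71. Of 38 families, none had shares that did not overlap between the groups. In Igkv4, 3 BMAd-DTA mice were below all Controls. Among small families, 5 BMAd-DTA mice were below all Controls in Ighv4 and in Igkv7 (mean shares of 0.470% and 0.0084% over all libraries). In Ighv15 (0.113%), 5 were above all Controls and 1 below. The 58 heavy chain segments nearest to Ighm, within 1288 kb, held 52.7% ± 2.31 of the heavy chain counts in Controls and 52.1% ± 1.97 in BMAd-DTA mice, and the 55 kappa segments nearest to Igkc held 50.6% ± 2.82 and 50.3% ± 2.85. For each chain the means of the groups were closer than 1 SD.

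**Figure D3:**
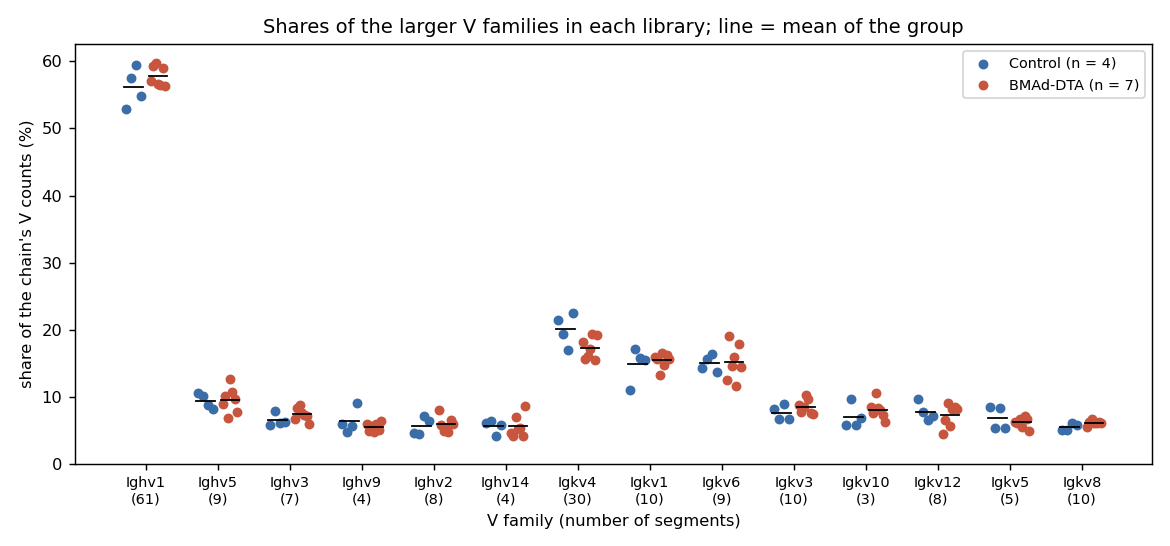
Share of the chain's V counts, in percent, taken by the 14 heavy and kappa families with a mean share of at least 5%, with 1 point per library (blue Control, red BMAd-DTA), a line for the mean of the group and the number of segments in brackets. Points of the groups overlap in every family, and Ighv1 holds 56.2% and 57.8% on average.

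Libraries were also compared by the rank of all segments. Spearman's rho across the 117 heavy chain segments had a median of 0.87 over 6 pairs of Controls, 0.90 over 21 pairs of BMAd-DTA mice and 0.90 over 28 pairs between the groups. Across the 110 kappa segments the medians were 0.88, 0.90 and 0.90. Pairs with Control replicate 1 had medians of 0.86 and 0.85. These are descriptions across segments of one chain, which share libraries and are not independent.

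Single segments were tested in the fit over all genes. Of the 230 members, 186 passed the filter on low counts (95 heavy chain, 88 kappa and 3 lambda, 5 of them pseudogenes). By edgeR's quasi-likelihood test, 0 of the 186 had an adjusted p under 0.05, while 0.0788% of all 16496 tested genes did. At an unadjusted p under 0.05 there were 18 segments, 16 higher and 2 lower in BMAd-DTA mice, or 9.68% of the members against 16.4% of all genes. DESeq2 gave 4 segments with an adjusted p under 0.05 out of 183 members with an adjusted p, against 5.42% of all genes. Values of the groups did not overlap for 1 of 186 segments, against 2.81% of all genes. Without Control replicate 1, 2 of the 186 did not overlap, against 3.56% of all genes.

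Most fitted differences pointed the same way, but not without Control replicate 1. The log2 fold change was above 0 for 135 of the 186 segments (72.6%, against 50.4% of all genes), that is 70 of 95 heavy chain, 64 of 88 kappa and 1 of 3 lambda segments. The medians were 0.24, 0.32 and -0.07, and the median of all tested genes was 0.0018. Without Control replicate 1, 100 of 198 segments were above 0 (50.5%), with a median of 0.02. Without Control replicate 2, the mouse with the largest V sums among Controls, 170 of 193 were (88.1%), with a median of 0.62. When each segment was scaled to the V sum of its own chain in place of the library size, 97 of 186 were above 0 (52.2%), with a median of 0.02. This fit takes out any shift shared by the segments of a chain. It therefore cannot speak to a shared direction, only to segments that differ from their chain. That fit gave 0 segments with an adjusted p under 0.05 and 20 with an unadjusted p under 0.05 (edgeR).

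**Figure D4:**
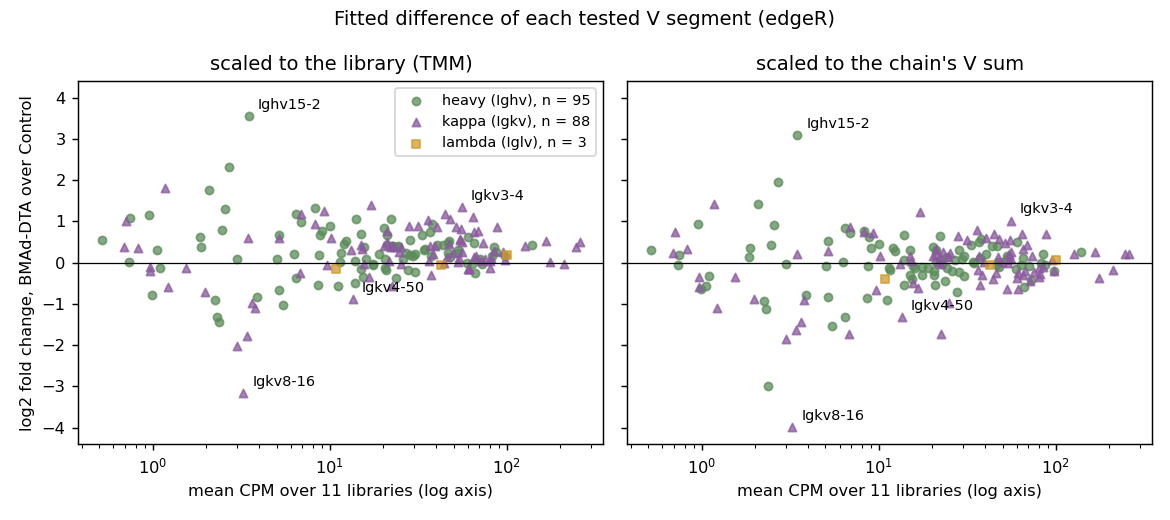
Fitted log2 fold change of BMAd-DTA over Control for each of 186 tested V segments against its mean CPM over 11 libraries (log axis), scaled to the library (left) and to the V sum of the chain (right), with circles for heavy, triangles for kappa and squares for lambda segments. On the left 135 points lie above 0 and on the right, where a shift shared by the chain is taken out, 97. In both panels the largest differences are at low CPM.

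The abundant segments overlapped between the groups. Ighv3-6, the heavy chain segment with the highest mean level, was at 34.1, 228, 117 and 77.5 CPM in Control replicates 1 to 4, and at 92.0, 154 and 204 CPM as the lowest, median and highest BMAd-DTA mouse. Its log2 fold change was 0.41 ± 0.37 (SE, edgeR adjusted p = 0.64). Igkv1-110 was at 62.3, 381, 199 and 175 CPM in Controls and at 169, 237 and 464 CPM as the lowest, median and highest BMAd-DTA mouse, with a log2 fold change of 0.49 ± 0.40 (SE, edgeR adjusted p = 0.60). In both, Control replicate 1 was the lowest of 11 libraries and the rest overlapped. The other 8 of the 5 heavy chain and 5 kappa segments with the highest mean CPM (Ighv9-3, Ighv1-26, Ighv1-81, Ighv1-64, Igkv10-96, Igkv1-117, Igkv6-15 and Igkv6-23) had log2 fold changes between -0.04 and 0.53.

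The smallest edgeR p-values of the V segments belonged to 3 kappa segments, each with a DESeq2 adjusted p under 0.05. Igkv4-50 was named after its values were seen. Their ends show how far they differ in the last bases of the V segment.
Igkv8-16: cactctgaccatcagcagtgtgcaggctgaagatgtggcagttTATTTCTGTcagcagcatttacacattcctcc
Igkv3-4: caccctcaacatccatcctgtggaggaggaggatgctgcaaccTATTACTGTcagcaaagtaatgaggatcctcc
Igkv4-50: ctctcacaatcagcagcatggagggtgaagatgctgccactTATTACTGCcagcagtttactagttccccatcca
They are at chr6:70386672-70386746 (minus strand), chr6:70672303-70672377 (plus) and chr6:69700767-69700841 (minus). Igkv8-16 had 264, 248, 7 and 6 counts in Control replicates 1 to 4 and 7 to 29 counts in the 7 BMAd-DTA mice. Replicates 1 and 2 were thus far above the other 9 libraries, while replicates 3 and 4 had 0.414 and 0.311 CPM, on either side of the lowest BMAd-DTA mouse at 0.382 CPM. The log2 fold change was -3.17 ± 0.82 (SE, edgeR adjusted p = 0.095). It had an adjusted p of 0.023 by DESeq2, and of 0.039 and 0.049 by edgeR without Control replicate 3 or 4, the 2 Controls in which it was low.

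Igkv3-4 was at 11.02, 33.4, 41.9 and 26.1 CPM in Control replicates 1 to 4, and at 41.6, 65.3 and 131 CPM as the lowest, median and highest BMAd-DTA mouse. Control replicate 3 was the 1 Control within the range of the BMAd-DTA mice, and it was next to the lowest of them. The log2 fold change was 1.35 ± 0.35 (SE, edgeR adjusted p = 0.095, DESeq2 0.020) and lay between 1.08 and 1.61 when each mouse was left out. Igkv4-50 was at 12.0, 21.6, 18.5 and 24.4 CPM in Controls and at 6.67, 9.17 and 18.1 CPM as the lowest, median and highest BMAd-DTA mouse. Without Control replicate 1 the groups of this segment did not overlap, and with it BMAd-DTA replicate 3 was the 1 mouse above the lowest Control. Its log2 fold change was -0.89 ± 0.24 (SE, edgeR adjusted p = 0.11, DESeq2 0.012), and it was -1.33 when scaled to the kappa sum (edgeR adjusted p = 0.089).

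The segment whose groups did not overlap was Ighv1-75, named here after its values were seen.
Ighv1-75: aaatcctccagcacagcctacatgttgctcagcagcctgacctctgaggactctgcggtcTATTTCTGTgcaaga
Ighv15-2: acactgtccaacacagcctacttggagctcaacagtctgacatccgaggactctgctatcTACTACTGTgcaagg
Ighv1-75 (chr12:115833950-115834024, minus strand) was at 6.61, 15.8, 13.9 and 16.2 CPM in Control replicates 1 to 4 and at 18.3, 21.8 and 54.9 CPM as the lowest, median and highest BMAd-DTA mouse. The log2 fold change was 1.06 ± 0.33 (SE, edgeR adjusted p = 0.13), and as a share of the heavy chain V counts the groups overlapped. The other segment with a DESeq2 adjusted p under 0.05 (0.035) was Ighv1-2, also named after its values were seen. It is a pseudogene that the filter of edgeR left out. It had 148 counts in BMAd-DTA replicate 2, 157 in replicate 6 and 3 to 15 in the other 9 libraries.

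Several of the largest fold changes belonged to segments with high counts in a few mice. Ighv15-2 (chr12:114564578-114564652, minus strand) had the largest log2 fold change of the tested segments, 3.55 ± 1.36 (SE, edgeR adjusted p = 0.21). It had 286, 87 and 221 counts in BMAd-DTA replicates 1, 4 and 6, 0 to 18 in the other 4 and 2, 19, 3 and 7 in Controls. The count of 0 in BMAd-DTA replicate 3 allows up to 3 counts, or 0.170 CPM. Next among heavy chain segments were Ighv3-5 (2.31 ± 0.97) and Ighv2-4 (1.77 ± 0.68), and the largest of the kappa chain were Igkv8-18 (1.80 ± 0.73), Igkv3-1 (1.39 ± 0.63) and Igkv3-4. The smallest were Ighv1-11 (-1.43 ± 0.89), Ighv1-37 (-1.32 ± 0.96) and Ighv7-1 (-1.02 ± 0.76) for the heavy chain, and Igkv8-16, Igkv3-9 (-2.01 ± 1.01) and Igkv11-125 (-1.79 ± 0.96) for the kappa chain (log2 fold change ± SE). None of these had an adjusted p under 0.05 by edgeR, and 4 changed sign without 1 Control: Ighv1-11 to 1.61 without replicate 1, Ighv1-37 to 2.41 and Igkv11-125 to 1.78 without replicate 2, and Ighv7-1 to 0.39 without replicate 3.

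High counts in single mice occurred in both groups. Among the 89 heavy chain and 80 kappa segments with at least 100 counts in some library, 17 and 13 reached at least 4 times their median CPM in 1 or more libraries. The highest ratios of the heavy chain were in Ighv1-43, with 243 counts in BMAd-DTA replicate 1 and 0 to 26 elsewhere (83.2 times the median), Ighv7-4, with 229, 135 and 112 counts in BMAd-DTA replicate 1, Control replicate 2 and BMAd-DTA replicate 3 (29.4 times), and Ighv15-2 (29.4 times). Those of the kappa chain were in Igkv1-132, with 153 counts in BMAd-DTA replicate 6 (52.8 times), Igkv3-9, with 268 in Control replicate 2 (23.2 times), and Igkv8-16 (21.5 times). In the libraries where they reached this mark, such segments together held at most 3.73% of heavy chain V counts and, in Control replicate 1, 8.45% of kappa V counts. The main segment there was Igkv12-89, with 1382 counts or 76.2 CPM against 4.11 to 39.0 CPM in the other 10 libraries. In 2 libraries, Control replicate 4 and BMAd-DTA replicate 7, no segment of either chain met this mark.

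**Figure D5:**
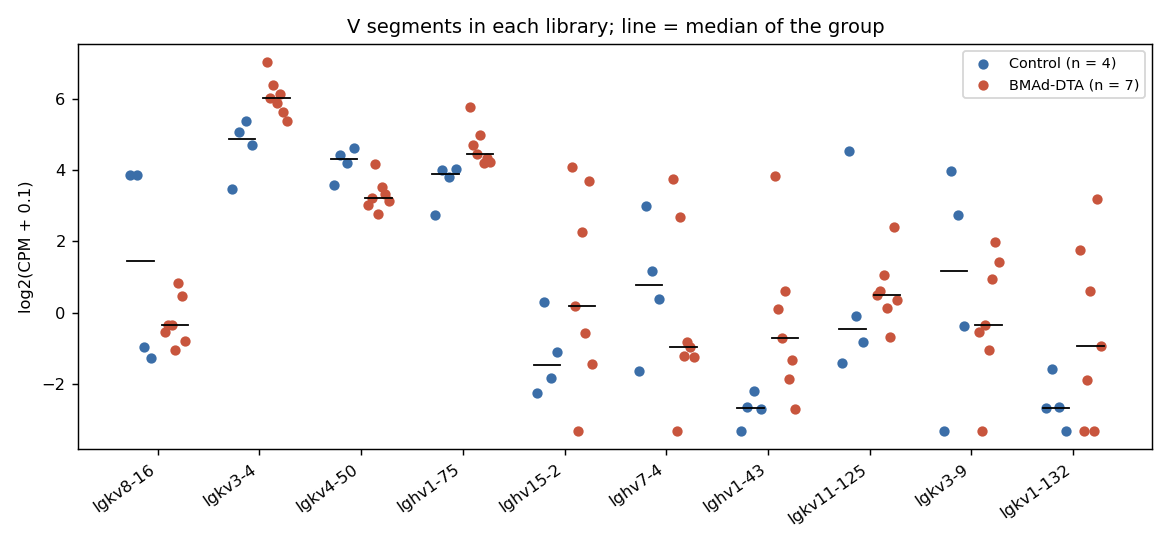
CPM of 10 V segments in each library on the scale log2(CPM + 0.1), with 1 point per mouse (blue Control, red BMAd-DTA) and a line for the median of the group. Igkv8-16 is high in 2 of 4 Controls, Igkv3-4 and Ighv1-75 are higher and Igkv4-50 lower in most BMAd-DTA mice, and the 6 segments on the right are high in 1 to 3 mice each.

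Pseudogenes took little of the counts. The 26 V pseudogenes in the table held 0.0894% to 0.223% of the V counts of a library. Of the 5 that were tested, none had an edgeR adjusted p under 0.05.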

How the data were processed

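Strand-specific mRNA of whole distal tibiae was sequenced as read pairs of 100 bases. By the submitters' processing notes and methods, the authors checked reads with FastQC 0.11.9, aligned them to mm10 with STAR and deposited raw counts per gene, in 1 file per library and 1 merged table of 22600 genes that holds their strand-matched column and leaves out genes summing to 10 counts or fewer. These deposited counts are whole pairs and were not normalized. The STAR version, its annotation and the authors' DESeq2 version are not given in the sources used here. Pairs aligned to several places (6.68% to 9.07% of a library) are not in the counts. The reference is of 1 strain and the mice were of mixed background, so pairs may be split between near-identical segments in a way that was not tested, and mutated V sequences may align less well.

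The 230 identifiers were matched without version to GENCODE M21 (GRCm38, the assembly of mm10), and all 230 matched. Sequences and positions come from it. The test was the two-sided quasi-likelihood F test of edgeR 4.0.16 under R 4.3.3, after filterByExpr and TMM scaling, with Benjamini-Hochberg adjustment over 16496 genes and a threshold of 0.05. The SE is the log2 fold change over the square root of F. Sums, effective numbers and shares were compared as values, with no test. DESeq2 1.42.0, other scalings, filters, count columns and leaving out each mouse were alternatives, and 2 were added after seeing the data: scaling to the V sum of the chain and counts per kilobase. The edgeR step was tested on simulated data. Among the 6 pairs of Control and 21 pairs of BMAd-DTA libraries, none agreed within sampling noise.

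The members and lists were chosen with earlier results of these data known. Named segments are all lambda segments, the 5 heavy chain and 5 kappa segments with the highest mean CPM, those leading a chain in any library, any with an adjusted p under 0.05, all constant genes, the largest and smallest of each B lineage list, the 3 largest and 3 smallest log2 fold changes per chain, and the 3 per chain with the highest ratio of highest to median library among segments with at least 100 counts in 1 library. Each mouse is 1 library, so p-values measure the spread between mice. The labels give no replicate numbers, so those used here follow accession order and only name libraries. Genome sequence around the segments was not used here.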

Additional observations from a re-analysis of the deposited data

Results flagged for a closer look

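Dixon's test at 95% was run on 120 sets of values, each 1 named gene in 1 group, and 14 had a library far from the others. Chance gives about 1 in 20 sets, but that rate does not apply here: many of these genes were named for a high count in 1 library or for an extreme fold change, and all sets share the same 11 libraries. The flags are therefore given as a description of single libraries. In Controls, Igkv12-89 was at 76.2 CPM in replicate 1 (others 7.83 to 15.8 CPM), Ighv1-11 at 14.4 CPM in replicate 1 (0.207 to 0.827), Igkv11-125 at 23.4 CPM in replicate 2 (0.276 to 0.827), Ighv1-37 at 14.1 CPM in replicate 2 (0.118 to 0.519) and Iglv2 at 21.7 CPM in replicate 3 (7.62 to 8.77). Ighv9-3 was low in Control replicate 1, at 37.9 CPM against 105 to 111 CPM.

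In BMAd-DTA mice, replicate 1 was high in Ighv1-75 at 54.9 CPM (others 18.3 to 31.8 CPM), Ighv1-43 at 14.3 CPM (0.0533 to 1.42) and Ighv7-1 at 10.96 CPM (0.546 to 4.34). Igkv8-18 was at 5.16 CPM in replicate 2 (0.402 to 2.12) and Igkv4-50 at 18.1 CPM in replicate 3 (6.67 to 11.5). Replicate 6 was high in Igkv1-132 at 8.98 CPM (0 to 3.30), Igkv11-125 at 5.22 CPM (0.517 to 1.99) and the constant gene Ighg1 at 2541 CPM (104 to 757).

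Annotated V segments outside the merged table, which no comparison used, had 4 to 15 counts per library, with the highest count of 15 in Control replicate 4 and in BMAd-DTA replicate 7.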

How the results depend on the processing

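The number of V segments with an adjusted p under 0.05 was 0 by edgeR and 4 by DESeq2, and lay between 0 and 1 when each mouse was left out. The 3 segments also in the edgeR test were Igkv8-16, Igkv3-4 and Igkv4-50. The 1 segment when a mouse was left out was Igkv8-16, without Control replicate 3 or 4. Leaving out each mouse moved the log2 ratio of the sums over -0.03 to 0.60 (heavy), 0.05 to 0.67 (kappa) and -0.22 to 0.33 (lambda), that of the effective numbers over -0.01 to 0.05 (heavy) and -0.01 to 0.04 (kappa), and the difference in percentage points over 0.02 to 0.62 (heavy top share), -0.14 to 0.61 (kappa top share) and -0.69 to -0.02 (lambda share), and each of these values moved from that with all mice by less than 1 SD between mice. Scaled to the V sum of the chain, the log2 fold change turned to -0.027 for Ighv7-4, -0.0098 for Ighv1-64, -0.061 for Ighv1-26, -0.37 for Igkv6-15 and -0.21 for Ighv9-3, and with library totals only to -0.0096 for Igkv6-15. When each mouse was left out, the log2 fold change changed sign within these ranges: Ighv1-11 -1.83 to 1.61, Ighv1-37 -1.72 to 2.41, Ighv1-55 -0.22 to 0.19, Ighv1-64 -0.14 to 0.55, Ighv7-1 -1.52 to 0.39, Ighv7-4 -1.12 to 1.37, Ighv9-3 -0.092 to 0.28, Igkv1-117 -0.37 to 0.39, Igkv11-125 -2.33 to 1.78, Igkv12-89 -0.87 to 0.65, Igkv6-15 -0.27 to 0.39, Iglv1 -0.10 to 0.59, Iglv2 -0.31 to 0.36 and Iglv3 -0.60 to 1.37. None of these had an adjusted p under 0.05, and the cause was not tested. No paired analysis was possible because the labels give no replicate numbers shared between the groups. Segments with few counts limit what could be seen: a count of 0 allows up to 3 counts, or 0.156 to 0.177 CPM.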
